A study of Rattus norvegicus with 12 samples.

Results

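Dense clusters of H3K27ac peaks were examined in primary vascular smooth muscle cells of the rat (Rattus norvegicus). Peaks of H3K27ac NC library 2 and SIANK library 2 were pooled and merged where they shared at least 1 bp, which gave 17034 merged regions. Merged regions with at most 12500 bp between them were joined, and the 617 joined groups with 4 or more merged regions, of 11087 groups in all, were kept as clusters. The clusters were thus chosen by the positions of the peaks in these H3K27ac lists. They held 3499 merged regions (20.5%). They were set beside the 8008 merged regions that joined with no other, called single regions here. The remaining 2462 groups held 2 or 3 regions.

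The series holds 12 CUT&Tag libraries, in which an antibody against a histone mark directs a transposase to cut and tag the nearby DNA. For each of H3K23ac, H3K27ac and H4K5ac there were 2 libraries labelled NC and 2 labelled SIANK, both from primary vascular smooth muscle cells. The meaning of either label, the strain, the age and any dose are not given in the labels. Nothing says that libraries 1 and 2 came from separate cultures or animals, so p-values reflect no more than library-to-library spread, possibly technical. In tests over all marks, differences between marks are part of that spread. Each library was represented by 1 list of peak positions, from 100 peaks (H4K5ac NC 1) to 17141 peaks (H3K23ac SIANK 2). The lists hold no peak height and no read count, so the depth behind them is unknown.

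Acetylation of histone tails loosens their hold on DNA and is read by bromodomain proteins. H3K27ac marks active enhancers and promoters, and H3K23ac and H4K5ac are likewise found at active chromatin. Runs of closely spaced H3K27ac-marked enhancers, often called enhancer clusters, are known from genes that define a cell type, and in the arterial wall such genes include those of the contractile apparatus. Enhancer clusters are usually ranked by signal, which these lists do not hold. The clusters here rest on spacing alone. The genome build is not given in the sources used here and the gene table at hand is on GRCr8, where 14 of the clusters would lie beyond the last gene of their chromosome. Clusters are therefore named by position in the files' own coordinates, no gene or sequence is assigned to them, and whether they are enhancers was not tested.

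Size and spacing chose the clusters, so their values are a description only. A cluster had a median of 5 merged regions (range 4 to 23), spanned a median of 21835 bp (4529 to 108205 bp) and had a median of 25.8% of its span inside H3K27ac regions. The longest region of a cluster had a median length of 2029 bp and made up a median of 35.9% of its covered length, while the 2882 other members had a median length of 752.5 bp. The longest member is picked by its length, so it had to exceed the others. The median gap between neighbouring members was 2742 bp. Regions of at least 3000 bp made up 5.09% of cluster regions (178 of 3499) and 1.16% of single regions (93 of 8008). Of the cluster regions, 67.0% had a peak in both lists that built them, 22.4% in SIANK 2 alone and 10.6% in NC 2 alone, against 72.1%, 18.0% and 9.94% of single regions.

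The number of clusters depended on the rule and on pooling. Of the 617 clusters, 283 had exactly 4 regions, and 603 groups had 3 and stayed outside. Groups of 4 spanned a median of 17042 bp and groups of 3 a median of 11826 bp, with H3K23ac SIANK 2 overlapping 82.2% and 84.7% of their regions. Gaps of 10000 to 12500 bp, just inside the joining distance, numbered 595, and gaps of 12500 to 15000 bp, just outside it, numbered 529. Built from NC 2 or SIANK 2 alone, the rule gave 415 or 519 clusters. Of the pooled clusters, 304 (49.3%) were touched both by a cluster from NC 2 alone and by one from SIANK 2 alone, and 57 pooled clusters (9.24%) were touched by neither.

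**Figure D1:**
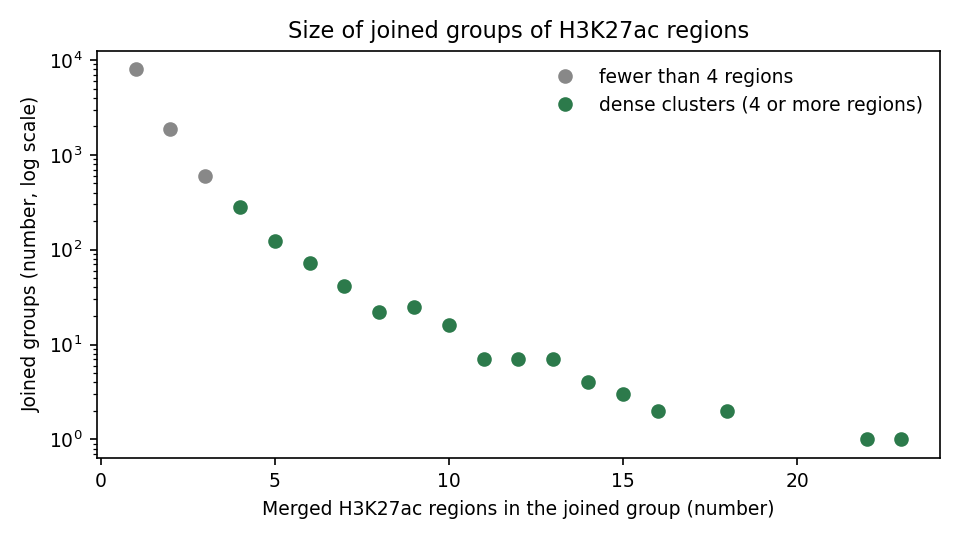
Number of joined groups (log scale) against the number of merged H3K27ac regions in the group. Grey points are groups of 1 to 3 regions and green points are the 617 dense clusters, which run from 283 groups of 4 regions to 1 group of 23.

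Clusters lay on every chromosome listed except Y, but unevenly. Chromosome 19 had 32.7% of its merged regions in clusters (183 of 559), chromosome 10 had 28.0% (406 of 1451) and chromosome 16 had 25.3% (126 of 498). At the other end, chromosome X had 5.91% (13 of 220) and chromosome 11 had 9.75% (46 of 472). Chromosomes 10 and 12 together had 26.0%, against 19.8% for the others. Chromosome 12 alone had 21.3% (132 of 620), near the 20.5% over all. Of 596 neighbouring pairs of clusters on a chromosome, 97 lay within 100000 bp of each other.

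Every cluster carried H3K23ac in at least 1 library. H3K23ac NC 1, NC 2, SIANK 1 and SIANK 2 had a peak in 591, 598, 613 and 617 of the 617 clusters, and 580 clusters (94.0%, exact 95% binomial interval 91.8 to 95.7) had one in all 4 lists. The H3K27ac libraries that did not build the clusters touched fewer of them, 267 (43.3%) for NC 1 and 420 (68.1%) for SIANK 1. H4K5ac NC 1, NC 2, SIANK 1 and SIANK 2 touched 10, 33, 30 and 120 clusters. A cluster holds several regions, so a share of clusters is not comparable with a share of single regions, and the comparisons that follow count regions.

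Region by region, cluster members were overlapped less often than single regions in all 10 libraries that the rule did not use. Regions in groups of 2, which lie outside the clusters, were also lower than single regions in each of these libraries. For H3K23ac NC 2 and SIANK 1 they stood at 56.1% and 65.0%. The lower overlap was thus not particular to clusters. For H3K23ac NC 1, NC 2, SIANK 1 and SIANK 2, a peak overlapped 56.2%, 57.3%, 65.8% and 83.2% of cluster regions. The same lists overlapped 63.8%, 60.7%, 68.0% and 87.2% of single regions. Cluster regions were lower in each H3K23ac library, by the most in NC 1 and the least in SIANK 1. H3K27ac NC 1 overlapped 11.1% of cluster regions and 16.8% of single regions, and SIANK 1 overlapped 21.5% and 28.5%.

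H4K5ac lists are short, and they overlapped few regions of either kind. The H4K5ac NC 1, NC 2, SIANK 1 and SIANK 2 lists overlapped 0.343%, 1.06%, 0.943% and 4.32% of cluster regions. They overlapped 0.462%, 1.96%, 2.37% and 8.42% of single regions. The exact 95% binomial intervals of these shares, which cover counting error over regions only, were at most 1.66 percentage points to either side for cluster regions and 1.08 for single regions over the 10 libraries. Those of H4K5ac NC 1 overlap each other (0.177 to 0.598% in clusters and 0.326 to 0.636% at single regions).

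Over the 10 libraries the mean log2 ratio of cluster to single overlap was −0.49 ± 0.44 (SD, n = 10), a ratio of 0.711. All 10 libraries lay below 0 (exact two-sided sign-flip permutation test p = 0.00195, the smallest that 10 libraries can give, and 0.00456 after Benjamini-Hochberg adjustment over 7 tests). The ratio was 0.935 for H3K23ac, 0.707 for H3K27ac number 1 and 0.542 for H4K5ac. The SD over the 10 libraries thus includes differences between marks. It was 0.06 within the 4 H3K23ac libraries and 0.38 within the 4 H4K5ac libraries. In the exact test the 4 libraries of a mark cannot go below p = 0.125 and 2 cannot go below 0.5. Without SIANK library 2 of each mark, with clusters then from NC 2 alone, 6 of 8 libraries lay below 0 and the adjusted exact p was 0.0729. At regions with a peak in both building lists, chosen after seeing the data, the mean log2 ratio was −0.31 (8 of 10 libraries below 0, adjusted exact p = 0.0273). The H3K23ac mean was then only −0.03. With clusters from NC 2 alone and all 10 libraries it was −0.02, and the mean over libraries was −0.46 (8 of 10 below 0, adjusted exact p = 0.0182). With only the upper 50% of each list by length the mean log2 ratio was −0.22 (6 of 10 libraries below 0, adjusted exact p = 0.291), and the H3K23ac mean turned to 0.09. The order of the marks also depended on the processing: at regions of 1000 to 2000 bp the H3K27ac mean of −0.87 lay below the H4K5ac mean of −0.58, as it did with equal lists (−0.43 and −0.22).

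**Figure D2:**
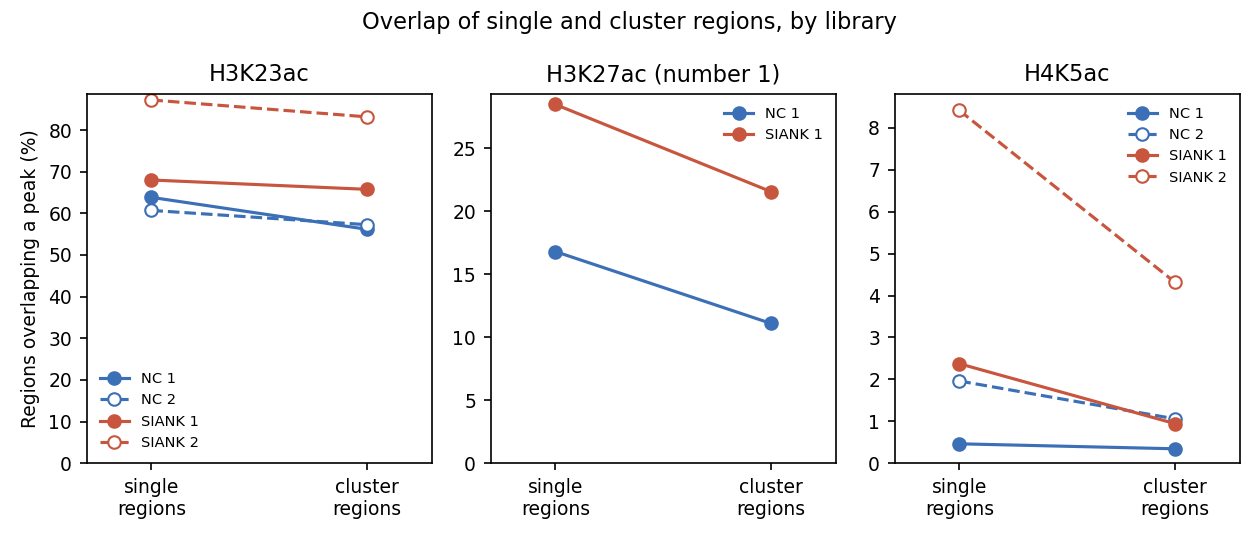
Percent of merged H3K27ac regions that overlap a peak of a library, for single regions (left) and cluster regions (right) of each panel, with a line per library (blue NC, red SIANK, filled and solid number 1, open and dashed number 2) and a separate scale per mark. All 10 lines go down from single to cluster regions, from 8.42% to 4.32% for H4K5ac SIANK 2.

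The lower overlap was also seen among regions of like length. Cluster regions of 500 to 999 bp and of 1000 to 1999 bp were overlapped less often than single regions of the same length in 10 of 10 libraries. For regions under 500 bp this held in 9 of 10 libraries and for those of 2000 bp or more in 8 of 10. At 1000 to 1999 bp, H3K27ac NC 1 overlapped 12.8% of 1074 cluster regions and 27.1% of 2563 single regions, and H3K27ac SIANK 1 overlapped 27.8% and 44.1%. At 2000 bp or more, H3K23ac overlapped nearly all regions of both kinds, with 95.3% to 99.8% of 491 cluster regions and 97.7% to 100% of 487 single regions over its 4 libraries.

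Within clusters the longest member was the one most often shared with other lists. H3K23ac NC 1, NC 2, SIANK 1 and SIANK 2 overlapped 88.3%, 89.6%, 92.1% and 97.7% of the 617 longest members. They overlapped 49.3%, 50.3%, 60.1% and 80.0% of the other members. H3K27ac SIANK 1 overlapped 41.8% of the longest members and 17.2% of the others. The longest member is picked by its length, and longer single regions were also overlapped more often by these lists. H3K27ac SIANK 1 overlapped 21.1% of single regions of 500 to 999 bp and 63.0% of those of 2000 bp or more. Rank within a cluster was not tested apart from length. Members at the ends of a cluster and those inside it had nearly equal median lengths, 899 and 881 bp. H4K5ac NC 2, SIANK 1 and SIANK 2 overlapped 1.46%, 1.46% and 6.40% of end members and 0.839%, 0.662% and 3.18% of inner members. H4K5ac NC 1 went the other way, with 0.324% and 0.353%. H3K23ac NC 1 and NC 2 overlapped 58.9% and 58.2% of end members and 54.7% and 56.8% of inner members. H3K23ac SIANK 1 and SIANK 2 were nearly equal, with 65.7% against 65.8% and 83.1% against 83.2%. H3K27ac NC 1 overlapped 12.6% and 10.2%, and H3K27ac SIANK 1 was also higher at the ends. Larger clusters give more of the inner members, and position was not tested apart from cluster size.

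H4K5ac thinned out further as clusters grew. H4K5ac SIANK 2 overlapped 8.42% of single regions, 5.57% and 6.30% of those in groups of 2 and 3, 5.44% in clusters of 4 to 5, 4.00% in clusters of 6 to 9 and 1.76% in clusters of 10 or more regions. In the largest class, of 626 regions, NC 2 and SIANK 1 each overlapped 0.160%, and NC 1 is listed at 0. H3K23ac varied less. Its NC 1 list overlapped 56.1%, 57.1% and 54.6% of regions in clusters of 4 to 5, 6 to 9 and 10 or more, against 63.8% of single regions. Its SIANK 1 list overlapped 64.2%, 67.2% and 67.6% of regions in the same 3 classes of cluster, against 68.0% of single regions. H3K27ac SIANK 1 likewise gave 21.2%, 21.7% and 22.4%, against 28.5%. These trends over classes were not tested.

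**Figure D3:**
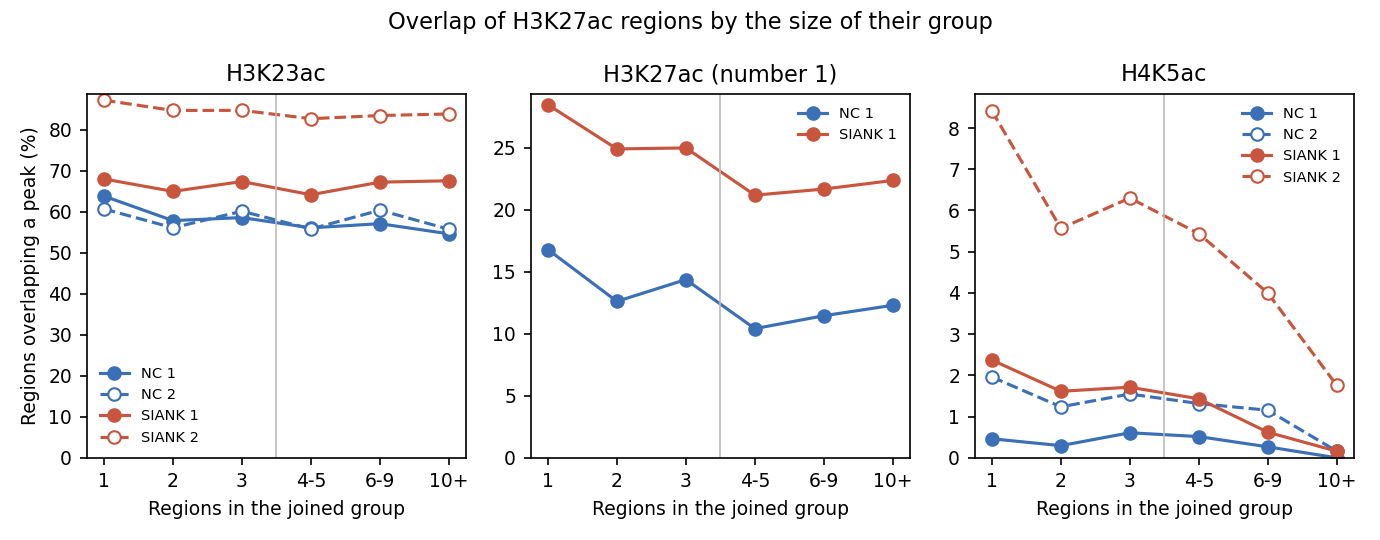
Percent of merged H3K27ac regions that overlap a peak of a library, against the number of regions in the joined group, with a separate scale per mark, colours and line styles as for the overlap by library, and a grey line between groups of 3 and clusters. H4K5ac SIANK 2 goes from 8.42% at single regions to 1.76% in clusters of 10 or more, while H3K23ac SIANK 1 stays between 64.2% and 68.0%.

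Cluster members also differed in how many lists they shared. H3K23ac was found in all 4 libraries at 41.8% of cluster regions (1463, exact 95% binomial interval 40.2 to 43.5) and 46.2% of single regions (45.1 to 47.3). It was found in none at 10.7% and 8.04%. H4K5ac of any library was found at 4.54% of cluster regions (159, interval 3.88 to 5.29) and 8.92% of single regions (714, interval 8.30 to 9.56). Of these 159 cluster regions, 153 also carried H3K23ac. The like counts were 686 of the 714 single regions and 1178 of 1218 over all merged regions, so this was not particular to clusters. Neither H3K27ac number 1 library had a peak at 77.7% of cluster regions and 70.8% of single regions.

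Between the members of a cluster, peaks of other lists were denser than beside single regions. The 11.1 Mb of gaps between members was compared with the 194 Mb that lies within 12500 bp of a single region. By the rule, neither holds a peak of the lists that built the clusters. H3K23ac NC 1, NC 2, SIANK 1 and SIANK 2 had 15.4, 5.57, 34.2 and 29.3 peak midpoints per Mb of gap. In the flanks of single regions they had 2.89, 0.834, 4.87 and 4.54 per Mb. Every H3K23ac library was at least 5 times as dense in gaps, with ratios of 5.33, 6.71, 7.03 and 6.47. H3K27ac NC 1 had 16 peaks in gaps and 71 in flanks, or 1.44 and 0.366 per Mb, and SIANK 1 had 41 and 154, or 3.69 and 0.793 per Mb. H4K5ac NC 1, NC 2, SIANK 1 and SIANK 2 had only 3, 1, 2 and 9 peaks in gaps and 1, 15, 29 and 119 in flanks, too few for a ratio per library.

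The mean log2 ratio of gap to flank density was 2.67 for H3K23ac and 2.12 for H3K27ac number 1. Over all 10 libraries it was 2.20 ± 1.44 (SD, n = 10) and above 0 in all 10 (exact two-sided sign-flip permutation test, p = 0.00195, adjusted p = 0.00456). Adding 0.5 to counts from a short and a long space pushes this ratio up where peaks are few, as in the 4 H4K5ac lists, of which NC 1 had 4 peaks in all. With the added count split by length, a setting chosen after seeing the data, the mean was 2.05, above 0 in 10 of 10 (adjusted exact p = 0.00456). Without the H4K5ac lists it was 2.48, above 0 in 6 of 6 (adjusted exact p = 0.0729, with 0.0312 the smallest p before adjustment). Counting only peaks that touch no merged region, with the added count split by length, it was 1.56, above 0 in 9 of 10 (adjusted exact p = 0.00911). Gaps lie closer to H3K27ac regions than most of the flank does. Within 1000 bp of a region the ratio was 0.65, above 0 in 7 of 10 libraries (adjusted exact p = 0.35), with a mean of 1.08 for H3K23ac, and with the added count split by length 0.38, above 0 in 6 of 10 (adjusted exact p = 0.692).

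Peaks of the other lists were longer at cluster regions than at single regions. The geometric mean length of H3K23ac peaks was 858, 898, 906 and 1051 bp at cluster regions in NC 1, NC 2, SIANK 1 and SIANK 2. At single regions it was 787, 780.0, 788 and 909 bp. H4K5ac SIANK 2 had 562 and 514 bp, and H4K5ac NC 1 had 428 and 427 bp. The mean log2 ratio was 0.13 ± 0.07 (SD, n = 10), above 0 in 10 of 10 libraries (exact two-sided sign-flip permutation test, p = 0.00195, adjusted p = 0.00456). At merged regions of 1000 to 2000 bp only, it was 0.02, above 0 in 5 of 10 (adjusted exact p = 0.749).

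No difference between NC and SIANK passed the test in any of 4 cluster measures. The SIANK minus NC difference, averaged over the 3 marks on the log2 scale, was −0.08 for the cluster to single overlap ratio (exact two-sided permutation of conditions within marks, p = 0.667, adjusted p = 0.778). The marks differed in sign there, with 0.08 for H3K23ac, 0.20 for H3K27ac number 1 and −0.50 for H4K5ac. The averaged difference was −0.71 for the gap to flank ratio (exact permutation p = 0.778, adjusted p = 0.778), of which H4K5ac gave −2.53, with 3 peaks or fewer in the gaps of 3 of its lists. It was 0.06 for the length ratio (exact permutation p = 0.222, adjusted p = 0.35). The smallest p that this permutation can give is 0.0278.

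The share of an H3K23ac list that fell inside clusters overlapped between conditions. It was 17.0% and 19.98% in NC and 18.4% and 17.5% in SIANK, with 2199, 2142, 2644 and 2999 peaks. H3K27ac NC 1 and SIANK 1 had 15.4% and 16.1%. H4K5ac had 13.0% and 10.5% in NC and 7.48% and 9.23% in SIANK, so its NC and SIANK values do not overlap, but both NC lists are shorter. With equal lists the H4K5ac log2 difference went from −0.52 to −0.10. The mean log2 difference over the marks was −0.16 (exact two-sided permutation within marks, p = 0.25, adjusted p = 0.35).

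H3K23ac regions gained in SIANK, meaning that both SIANK lists and no NC list had a peak there, were found in clusters and outside them. They made up 282 of 3499 cluster regions (8.06%, exact 95% binomial interval 7.18 to 9.01), against 7.30% of all merged regions and 6.86% of single regions. That interval holds the share of all merged regions and lies above that of single regions, and it covers counting error over regions only, not the spread of libraries. Lost regions, the reverse, numbered 3 in clusters (0.0857%, against 0.0881% of all). Both SIANK lists of H3K23ac are longer than both NC lists, and the part of list length in the gains was not tested beyond the equal lists given in the next paragraph. Without NC 1, NC 2 or SIANK 1 the gained share in clusters was 12.9%, 15.4% and 18.4%, and that of all regions 13.2%, 13.6% and 17.2% (without a number 2 library the clusters come from the other H3K27ac list alone). With fewer lists the definition of a gain is looser, so over the same regions the share can only stay or rise. Among regions of 1000 to 2000 bp it was 5.31% in clusters (4.04 to 6.82) and 3.42% of all. At regions with a peak in both building lists, which leaves out those found in SIANK 2 alone, it was 6.27% in clusters and 5.31% of all. Gained H4K5ac regions made up 13 of 3499 cluster regions (0.372%), against 0.804% of all merged regions, and 1 region was lost (0.0286%, against 0.00587%). For H3K27ac number 1, with 1 library a condition, 11.2% of cluster regions had a peak in SIANK 1 alone, against 12.1% of all, and 0.743% in NC 1 alone, against 0.640%.

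At least 1 gained H3K23ac region was present in 208 of the 617 clusters (33.7%), 153 of them with just 1. In 14 clusters there were 3 or more, with 47 of the 282 gained regions. A cluster holds several regions, so this share rises with cluster size, and no like share over all joined groups is given here. Region by region, gains made up 8.06% of cluster regions and 7.30% of all merged regions. The share of clusters was not compared with a random placing of the gains, so it does not show how far they spread or gather. Counted over whole clusters, 179 of 617 (29.0%) had more H3K23ac peaks in both SIANK lists than in either NC list, and 12 (1.94%) the reverse. Over all 11087 joined groups the same shares were 10.02% and 0.505%, over groups that mostly hold a single region and so fewer peaks. H3K27ac SIANK 2 helped to build these groups. Of the cluster regions, 22.4% had a building peak in SIANK 2 alone and 10.6% in NC 2 alone. How far this tilts the counts toward SIANK was not tested. For H4K5ac the counts were 12 clusters (1.94%) higher in SIANK, against 1.20% of all groups, and 1 cluster higher in NC, against 0.00902%. Without NC 1 the H3K23ac counts were 279 and 21 of 617, and without SIANK 1 they were 333 and 23. With fewer lists to separate, these counts too can only stay or rise over the same clusters. Leaving out a number 2 library also changes the clusters, which then come from 1 H3K27ac list: without NC 2 they were 222 (42.8%) and 49 (9.44%) of 519 clusters, and without SIANK 2 they were 144 (34.7%) and 40 (9.64%) of 415. When the longest 10720 peaks of every H3K23ac list were used, so that lists were equal, 59 and 32 clusters were left, and the gained share was 3.40% in clusters and 2.81% of all regions.

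**Figure D4:**
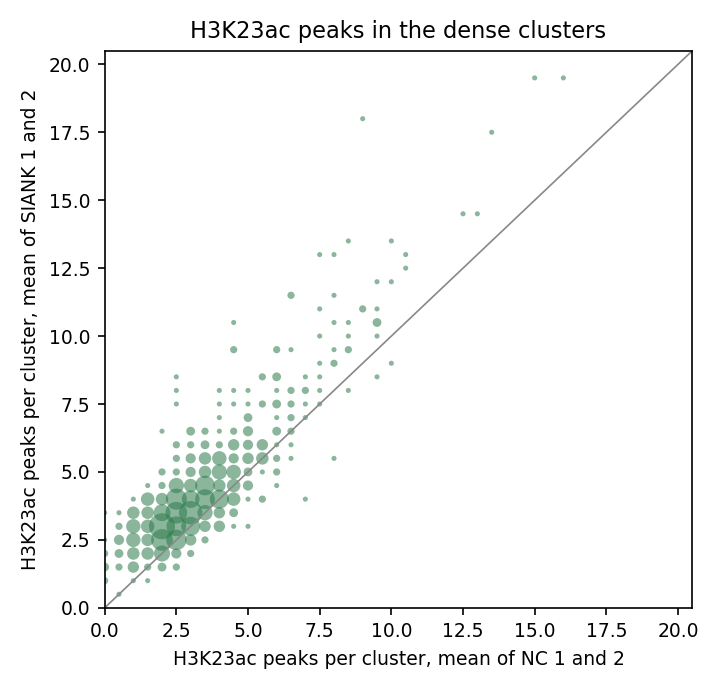
Mean number of H3K23ac peaks per cluster in the 2 SIANK libraries against the mean in the 2 NC libraries, with point area in proportion to the number of clusters at that value and a line of equality. The SIANK mean is higher in 463 clusters, equal in 88 and lower in 66, and the medians are 4 and 3 peaks.

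The cluster with the most regions, 23, lay on chromosome 19 from 25844642 to 25916019. It spanned 71378 bp, with 25509 bp in merged regions of 321 to 3609 bp. It held 8 and 10 H3K23ac peaks in NC 1 and NC 2 and 16 and 20 in SIANK 1 and SIANK 2, the widest separation of conditions among the 617 clusters. Its H3K27ac counts were 4 and 16 in NC and 6 and 20 in SIANK, and no H4K5ac list had a peak in it. Of its 23 regions, 7 carried H3K23ac in all 4 libraries, 3 in none and 5 were gained in SIANK. All 5 gained regions lay between 25880506 and 25900040, among them a region of 1883 bp from 25885075 to 25886957. The longest region, from 25855043 to 25858651, had H3K23ac in all 4 libraries.

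**Figure D5:**
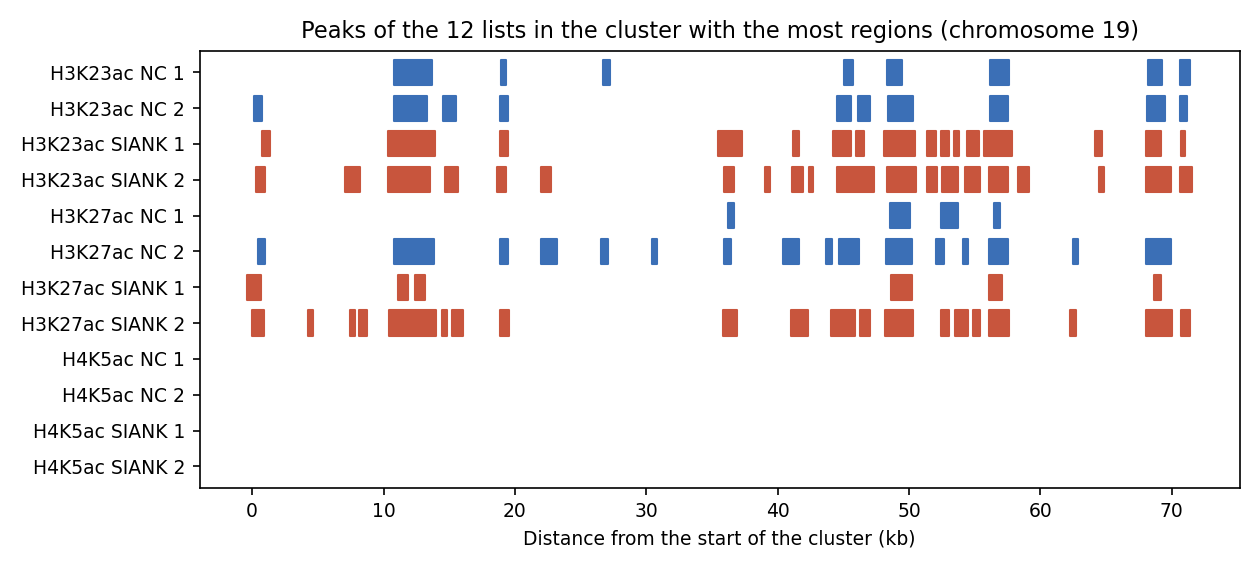
Peaks of the 12 lists (blue NC, red SIANK) along the chromosome 19 cluster with 23 merged regions, by distance from its start in kb. H3K23ac has 8 and 10 peaks in the NC lists and 16 and 20 in the SIANK lists, and the 4 H4K5ac rows are empty.

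The next largest clusters differed in how far their H3K23ac counts separated by condition. The second, on chromosome 18 from 55865213 to 55948944, had 22 regions and the largest length in merged regions, 39223 bp. Its H3K23ac counts were 19 and 13 in NC and 20 and 19 in SIANK, which touch at 19. The longest span, 108205 bp, belonged to a cluster of 18 regions on chromosome 19 from 59404928 to 59513132, with 16 and 14 H3K23ac peaks in NC and 18 and 21 in SIANK. A cluster of 18 regions on chromosome 7 from 12398405 to 12479107 had 15 and 11 in NC and 13 and 16 in SIANK, so its conditions overlap. Over the 10 clusters with the most regions (172 in all), H3K23ac overlapped 58.7% and 57.6% of regions in NC and 73.3% and 87.2% in SIANK. H4K5ac had 1 peak in each of 2 of these clusters, both in SIANK 2, and none in the other 8.

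Among clusters ranked by the gap between H3K23ac counts, the next after the chromosome 19 cluster was on chromosome 15 from 106680307 to 106723271. It had 3 and 2 peaks in NC and 9 and 8 in SIANK, and 3 of its 7 regions were gained. A cluster on chromosome 5 from 116455364 to 116507983, with 13 regions of which 4 were gained, had 5 and 4 peaks in NC and 9 and 10 in SIANK. On chromosome 10 from 107355321 to 107394372 the counts were 4 and 5 in NC and 10 and 9 in SIANK. On chromosome 6 from 95922412 to 95934372 all 4 regions of a small cluster were gained, the only cluster of the 5 with the most gained regions in which every member was, and it was singled out after its values were seen.

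The reverse order was rarer and smaller. The top cluster, on chromosome 7 from 117251538 to 117270637, had 5 H3K23ac peaks in each NC list and 3 in each SIANK list. Its members of 5346 and 5225 bp had H3K23ac in all 4 libraries, while its first region, of 874 bp, was 1 of the 3 lost regions, with a peak in both NC lists and in neither SIANK list. A cluster on chromosome 6 from 110801187 to 110826215 had 8 and 6 peaks in NC and 4 in each SIANK list.

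The cluster with the most H4K5ac peaks had 4 regions and lay on chromosome X, from 112386587 to 112394445. It held 15 H4K5ac peaks, with 4, 4, 4 and 3 in NC 1, NC 2, SIANK 1 and SIANK 2. Its 4 NC 1 peaks are among the 13 that this list had inside all clusters, and each of its 4 regions carried H4K5ac in all 4 libraries. Its H3K23ac counts were 2 and 4 in NC and 3 and 4 in SIANK. On chromosome 4 from 77446377 to 77464368, a cluster of 6 regions had 1, 2, 2 and 2 H4K5ac peaks. A chromosome 6 cluster, 109281372 to 109315190, had 0, 1, 1 and 5. Another chromosome X cluster, 106167156 to 106180262, had 0, 0, 2 and 5. A chromosome 9 cluster, 93490065 to 93548635, had 0, 0, 1 and 5. In the chromosome 6 and 9 clusters and this other chromosome X cluster, most H4K5ac peaks came from SIANK 2, the longest H4K5ac list. In all, 128 clusters (20.7%) had an H4K5ac peak in any library and 7 had one in all 4.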

How the data were processed

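CUT&Tag peak lists of 12 libraries were used. Per the file headers, each deposited list gives chromosome, start, end and length in bp, with no score, so positions and lengths were the only values. BWA and deepTools are listed, with no version or role, in the submitters' processing notes. How peaks were called, against what control and on which build is not given in the sources used here. Groups and replicate numbers came from the sample titles. The clusters, tests and lists were chosen with earlier results of these data known. Merged regions and joined groups were identical to those of bedtools 2.31.1.

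Tests used the 10 lists that did not build the clusters, as log2 ratios with 0.5 added to counts of regions or peaks, and exact permutation over libraries (1024 sign flips, or 72 arrangements of conditions within marks), adjusted by Benjamini-Hochberg over 7 tests at a threshold of 0.05. The libraries are scored on the same regions, so the sign flips treat as independent values that share them. Clusters were named by the number of regions, span, H4K5ac peaks and H3K23ac differences (10, 5, 5 and up to 5 each way); no cluster lacked H3K23ac. The planned part of that rule on genes was not run for want of an annotation of the build. The counting was tested on simulated lists. Python 3.11.15, numpy 2.4.6, pandas 2.3.3, scipy 1.17.1 and matplotlib 3.10.9 were used.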

Additional observations from a re-analysis of the deposited data

How the results depend on the processing

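Of 148 values under alternatives, 111 kept direction and call or stayed near the reported value, 16 moved, 9 reversed and 12 lost the call. The 111 include SIANK minus NC differences that were never called (14 of 18, 18 of 20, 16 of 17 and 12 of 14). Some of their settings could not give a call, such as without H4K5ac, with a smallest exact permutation p of 0.167. Near was also broad for counts of clusters, as 222 of 519 was taken as near 179 of 617. The 111 are thus no measure of stability. Alternatives by regions in both building lists, distance to a region, peaks touching no region, the added count split by length and all those on counts of clusters were chosen after seeing the data. The log2 overlap ratio (−0.49) lost its call with a joining gap of 5000 bp (−0.47), the upper 50% of lists (−0.22), equal lists (−0.20) and without H4K5ac (−0.23, where 6 libraries cannot go below an exact p of 0.0312), and without SIANK replicate 2 (−0.44, adjusted exact p = 0.0729, 6 of 8 libraries below 0). It was −0.54 to −0.44 leaving out a replicate. The gap to flank ratio lost it without H4K5ac (2.48, same limit) and within 1000 bp (0.65, or 0.38 with the added count split by length), and was 1.75 to 2.36 leaving out a replicate. The length ratio lost it at 1000 to 2000 bp (0.0208), with the upper 50% (0.0844), equal lists (0.0765) and without H4K5ac (0.15), and was 0.12 to 0.19 leaving out a replicate. The cause was not tested. SIANK minus NC, never called, reversed for overlap with 50% of a region covered (0.0804), regions of 1000 to 2000 bp (0.0457), equal lists (0.21) and without H4K5ac (0.14), for gaps without H4K5ac (0.20) and within 1000 bp with the added count split by length (0.0151), for length without NC replicate 1 (−0.0119, up to 0.12 leaving out others) and for the share inside clusters with equal lists (0.0498) and without H4K5ac (0.0144). Leaving out a replicate gave −0.30 to −0.12 for overlap, −1.24 to −0.12 for gaps and −0.34 to −0.22 for the share inside. Gained H3K23ac in clusters, beside all regions, was 6.41% and 5.95% from NC 2 alone, 5.31% and 3.42% at 1000 to 2000 bp, 5.23% and 4.76% with the upper 50%, 3.40% and 2.81% with equal lists, and 6.27% and 5.31% at regions in both building lists. Leaving out a replicate, which also loosens the definition of a gain, gave 8.15 to 18.4%. The 179 and 12 clusters of 617 became 59 and 32 with equal lists. Leaving out a replicate gave 144 to 333 and 21 to 49, where a left-out number 2 library also changes the clusters (519 without NC 2 and 415 without SIANK 2, the source of the 144). With a block by replicate number, whose pairing the labels do not give, the 4 differences between conditions had exact permutation p of 0.875, 0.812, 0.188 and 0.375 (smallest possible 0.0625), with the same values (−0.08, −0.71, 0.06 and −0.16), and no call changed. Unknown depth limits all values: a region without a listed peak may still carry the mark.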
